A study of Mus musculus with 4 samples.

Results

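The mitochondrial respiratory chain was followed through the 92 nuclear genes whose symbol begins with Nduf, Uqcr, Cox4 to Cox8 or Atp5 or is Sdha, Sdhb, Sdhc or Sdhd, out of 23980 genes listed. They comprised 36 subunits of complex I, 4 of complex II, 8 of complex III, 20 of complex IV and 7 assembly factors of complex I. The other 17 genes were counted as complex V by their Atp5 symbol. The 3 testis isoforms of complex IV, Cox6b2, Cox7b2 and Cox8c, were set against the others. PolyA(+) RNA was sequenced from germ cells at the start of meiosis, spermatocytes in leptotene or zygotene (L/Z), which had been sorted from testes of F1 hybrid mice (C57BL6/J and MSM/Ms) aged 3 to 4 weeks. The genotypes were Dnmt3L_Het, Dnmt3L_KO, Pld6 WT and Pld6 KO, with 1 library each. Pld6 encodes a nuclease of the piRNA pathway, and Dnmt3l encodes a cofactor of DNA methylation in the male germ line. Both control libraries, Dnmt3L_Het and Pld6 WT, differ in genotype and line, so the spread between them holds more than replicate error, and neither mutant has a replicate. Germ cells of both mutants die at the end of zygotene according to the study, so later stages exist in the control testes alone.

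The complexes of the chain sit in the inner mitochondrial membrane, where complexes I to IV pass electrons from NADH and succinate to oxygen and pump protons, and complex V uses the proton gradient to make ATP. Complex IV, cytochrome c oxidase, has several small nuclear subunits that exist in tissue isoforms encoded by separate genes. In the testis, Cox6b2, Cox7b2 and Cox8c stand beside the widely expressed Cox6b1, Cox7b and Cox8a, and the germ line likewise has its own cytochrome c (Cyct). Genes encoded by mitochondrial DNA were not analysed here.

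The values of an isoform and its partner can only be told apart where their sequences differ. The coding sequences of the 3 pairs (GENCODE M21 transcripts, build GRCm38) are printed 5′ to 3′, with capitals for the bases that differ from, or have no counterpart in, the partner. Cox6b2 is encoded at chr7:4751922-4752835 (minus strand), Cox6b1 at chr7:30617109-30624605 (minus), Cox7b2 at chr5:71442965-71443213 (minus), Cox7b at chrX:106015831-106021823 (plus), Cox8c at chr12:102899366-102900337 (plus) and Cox8a at chr19:7215389-7217512 (minus), each span running from the first to the last coding base.
Cox6b2: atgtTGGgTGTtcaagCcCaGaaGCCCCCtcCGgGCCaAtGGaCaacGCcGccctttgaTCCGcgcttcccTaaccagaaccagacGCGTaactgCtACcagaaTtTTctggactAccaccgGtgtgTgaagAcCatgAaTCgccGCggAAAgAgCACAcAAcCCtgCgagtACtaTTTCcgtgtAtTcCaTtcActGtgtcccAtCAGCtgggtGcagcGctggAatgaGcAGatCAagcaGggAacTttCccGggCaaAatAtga
Cox6b1: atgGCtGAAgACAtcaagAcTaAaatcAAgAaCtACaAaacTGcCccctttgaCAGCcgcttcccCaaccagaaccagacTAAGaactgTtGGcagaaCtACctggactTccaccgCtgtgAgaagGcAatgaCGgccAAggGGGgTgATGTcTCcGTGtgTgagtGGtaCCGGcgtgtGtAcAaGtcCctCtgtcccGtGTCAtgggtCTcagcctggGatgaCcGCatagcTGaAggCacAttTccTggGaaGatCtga
Cox7b2: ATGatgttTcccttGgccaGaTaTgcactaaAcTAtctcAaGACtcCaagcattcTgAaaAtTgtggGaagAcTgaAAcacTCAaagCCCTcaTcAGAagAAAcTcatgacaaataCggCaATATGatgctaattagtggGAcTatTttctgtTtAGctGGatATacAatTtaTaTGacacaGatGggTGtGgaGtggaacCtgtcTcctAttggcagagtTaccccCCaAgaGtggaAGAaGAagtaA
Cox7b: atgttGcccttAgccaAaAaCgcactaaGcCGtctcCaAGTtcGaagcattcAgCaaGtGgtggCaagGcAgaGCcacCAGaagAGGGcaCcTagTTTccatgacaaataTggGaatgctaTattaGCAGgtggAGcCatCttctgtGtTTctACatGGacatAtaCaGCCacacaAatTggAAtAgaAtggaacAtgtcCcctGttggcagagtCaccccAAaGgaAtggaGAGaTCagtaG
Cox8c: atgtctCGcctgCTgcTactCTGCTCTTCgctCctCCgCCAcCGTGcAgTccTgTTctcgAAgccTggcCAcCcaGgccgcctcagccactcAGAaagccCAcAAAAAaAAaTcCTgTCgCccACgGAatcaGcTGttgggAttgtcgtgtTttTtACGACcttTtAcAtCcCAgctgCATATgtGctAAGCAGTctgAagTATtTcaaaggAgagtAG
Cox8a: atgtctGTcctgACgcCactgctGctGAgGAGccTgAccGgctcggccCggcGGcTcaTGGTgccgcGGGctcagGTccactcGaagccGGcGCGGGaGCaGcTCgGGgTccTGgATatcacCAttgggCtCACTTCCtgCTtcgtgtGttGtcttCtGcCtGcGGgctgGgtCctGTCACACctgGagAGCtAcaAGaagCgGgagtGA
The aligned coding sequences were identical at 61.9% of positions for Cox6b2 and Cox6b1, at 65.1% for Cox7b2 and Cox7b and at 51.5% for Cox8c and Cox8a. The longest stretch of bases found in both coding sequences was 14 bases for Cox6b2 and Cox6b1, 11 for Cox7b2 and Cox7b and 9 for Cox8c and Cox8a, well under the read length of 50 bp. No stretch of 50 bases of Cox6b2, Cox7b2 or Cox8c transcripts occurred in a transcript of another gene. Among all 92 members, 53 shared no 50-base stretch with another gene and 19 shared more than 10% of theirs, and values of the latter are less certain.

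The libraries held between 30439943 (Pld6 KO) and 63875934 (Dnmt3L_Het) fragments in genes, a sum above the reads per library that the study states, so that counting intervals may be too narrow. The members took 1.43% of these fragments in Dnmt3L_Het, 1.06% in Pld6 WT, 1.01% in Dnmt3L_KO and 1.12% in Pld6 KO. Levels are given as FPKM, fragments scaled to transcript length and library depth, and 88 members had a mean of at least 1 FPKM. Each targeted gene was lowest in its own knockout. Pld6 was at 17.2, 19.5, 8.55 and 0.334 FPKM in Dnmt3L_Het, Pld6 WT, Dnmt3L_KO and Pld6 KO, and Dnmt3l at 1.27, 0.98, 0 and 0.432 FPKM. Markers of meiotic entry were present in all 4 libraries, with a median over 19 genes from 67.7 to 171 FPKM, and so were those of Sertoli cells, the somatic cells of the tubule, whose median over 16 genes was 76.6 FPKM in Dnmt3L_Het, 4.96 FPKM in Pld6 WT, 126 FPKM in Dnmt3L_KO and 16.5 FPKM in Pld6 KO.

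The 3 testis isoforms were strongly expressed in both controls and were lower in both mutants than in either control. Cox8c, the testis form of a small membrane subunit of complex IV, stood at 330 FPKM in Dnmt3L_Het and 181 FPKM in Pld6 WT, against 12.2 FPKM in Dnmt3L_KO and 16.9 FPKM in Pld6 KO. It was thus 14.8-fold (Dnmt3L_KO) and 10.7-fold (Pld6 KO) below the lower control, whereas the controls differed from each other by 1.83-fold. Cox6b2, the testis form of a subunit on the outer face of the enzyme, was at 211, 130, 23.6 and 24.5 FPKM in the same order, 5.53-fold and 5.33-fold below the lower control. Cox7b2, the testis form of another small subunit, was at 228, 170, 52.1 and 61.7 FPKM, 3.26-fold and 2.75-fold below the lower control. Of the 3 genes Cox7b2 differed least and Cox8c most, in each mutant, and the gap to the mutants exceeded the gap between controls for all 3.

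The somatic partners did not share this pattern. Cox6b1 was at 535 FPKM in Dnmt3L_Het, 348 FPKM in Pld6 WT, 480 FPKM in Dnmt3L_KO and 438 FPKM in Pld6 KO, both mutants lying between the controls. Cox7b, which is X-linked, was at 52.1, 26.2, 51.9 and 33.7 FPKM, also with both mutants between the controls. Cox8a was at 283, 226, 296 and 437 FPKM, above both controls in either mutant.

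**Figure D1:**
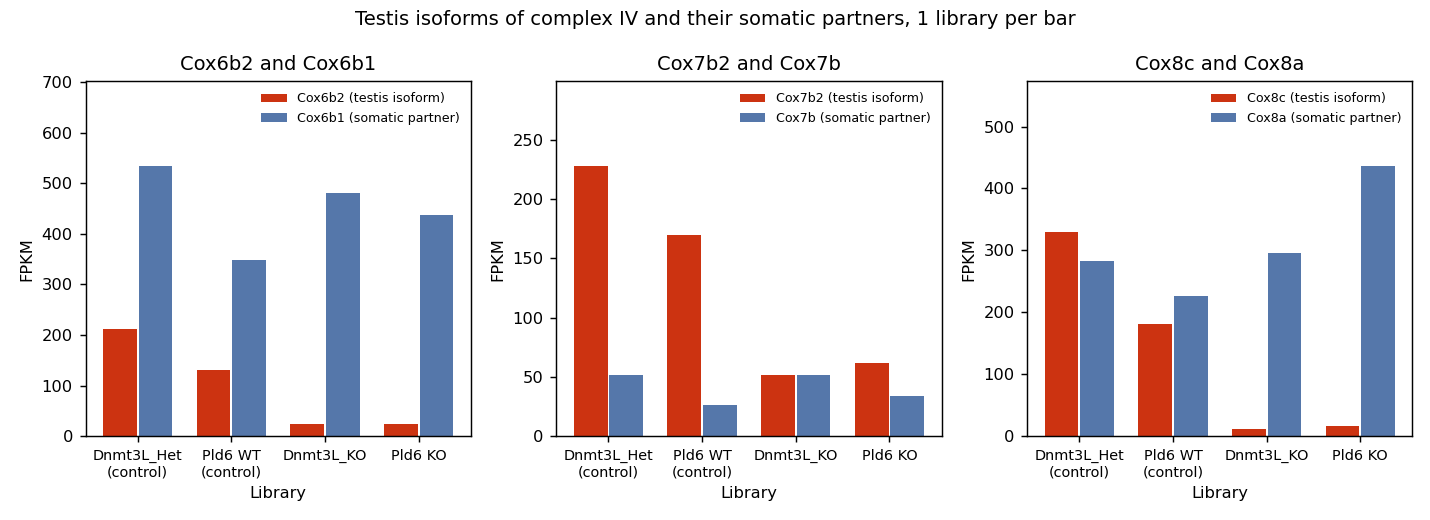
FPKM of each testis isoform (red) and its somatic partner (blue) on a linear axis from 0, with 1 bar per library and gene. Red bars are tall in both controls and short in both mutants (Cox8c 330 and 181 FPKM against 12.2 and 16.9 FPKM), while blue bars of the mutants lie between or above those of the controls.

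Within a library, the share of the testis isoform in the summed FPKM of isoform and partner does not depend on how libraries are scaled. Cox6b2 made up 28.3% of its pair in Dnmt3L_Het (95% Wilson interval 27.6% to 29.1%) and 27.3% in Pld6 WT (26.1% to 28.5%), but 4.68% in Dnmt3L_KO (4.21% to 5.20%) and 5.29% in Pld6 KO (4.63% to 6.05%). Cox8c made up 53.8% (53.0% to 54.7%) and 44.4% (43.1% to 45.8%) in these controls, but 3.95% (3.39% to 4.60%) and 3.73% (3.19% to 4.37%) in these mutants. The mutant shares of both pairs lay far outside the range of the controls. Cox7b2 made up 81.4% (80.7% to 82.1%) and 86.7% (85.7% to 87.5%) in the controls, and 50.1% (48.1% to 52.1%) and 64.7% (62.3% to 67.0%) in the mutants. Counted as fragments, with no correction for length, it was the larger part of its pair in the controls (65.1% and 73.5%) but the smaller part in Dnmt3L_KO (30.0%) and Pld6 KO (43.9%). The Wilson intervals cover counting error only. The partner Cox7b was at 52.1 and 51.9 FPKM in the Dnmt3L line, and at 26.2 (Pld6 WT) and 33.7 FPKM (Pld6 KO) in the other. Differences in the Cox7b2 share between libraries therefore also hold those of its partner.

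**Figure D2:**
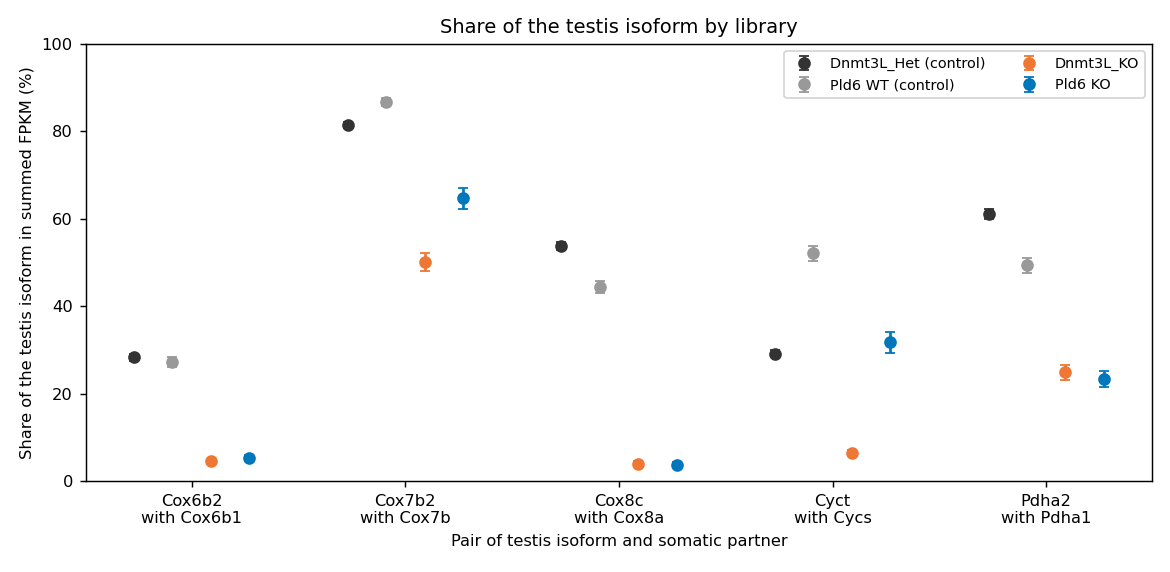
Share of the testis isoform in the summed FPKM of isoform and somatic partner, in percent, with 1 point per library and 95% Wilson intervals of counting error. For Cox6b2, Cox7b2, Cox8c and Pdha2 both mutants lie below both controls, whereas for Cyct the Pld6 KO (31.8%) lies between the controls (29.2% and 52.1%).

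Counted over all members, 5 were more than 2-fold lower than both controls in the Pld6 KO (of FPKM + 1), where 5.41% of all 23980 genes and 8.57% of the 14416 genes with a mean of at least 1 FPKM were, and 1 was more than 2-fold higher (1.04% and 1.51%). In the Dnmt3L_KO the numbers were 5 lower (5.78% and 9.16%) and 0 higher (2.14% and 3.29%). The share of members that were lower, 5 of 92, was near the background in both mutants. The counts depend on the controls, since against Dnmt3L_Het alone 17 members were lower in the Pld6 KO (13.4% of all genes), and against Pld6 WT alone 4 were higher in the Dnmt3L_KO (12.1%). The 5 were Cox6b2, Cox7b2, Cox8c, Ndufaf3 and Ndufa4l2 in either comparison, which use the same controls, and the 1 higher gene was Ndufb9.

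Ndufaf3 encodes an assembly factor of complex I. Its level was 155 FPKM in Dnmt3L_Het, 84.6 FPKM in Pld6 WT, 19.2 FPKM in Dnmt3L_KO and 13.3 FPKM in Pld6 KO. It was 4.41-fold and 6.36-fold below the lower control in these mutants. The gene (chr9:108565587-108567436, minus strand) overlaps Impdh2 on the opposite strand, and since it is not stated whether the strand was used in counting, reads of both genes may be mixed. The other 6 assembly factors, Ndufaf1, Ndufaf2 and Ndufaf4 to Ndufaf7, were each less than 2-fold away from at least 1 control. The median change of the 7 was -0.51 in the Pld6 KO and -0.50 in the Dnmt3L_KO. Ndufaf3 was the most abundant of them by mean (68.1 FPKM) and Ndufaf4 the least (6.04 FPKM).

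Ndufa4l2, a relative of the complex IV subunit Ndufa4 that is induced by low oxygen in other tissues, was much less abundant. It was at 6.71, 4.00, 0.332 and 0.580 FPKM in Dnmt3L_Het, Pld6 WT, Dnmt3L_KO and Pld6 KO, from 332, 124, 12 and 14 fragments. Both mutants were below both controls, 12.0-fold (Dnmt3L_KO) and 6.90-fold (Pld6 KO) under the lower one. The gene overlaps Shmt2 on the opposite strand. Ndufa4 itself was at 594, 388, 544 and 503 FPKM, with both mutants between the controls.

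With edgeR's quasi-likelihood test over 18657 genes, 90 members among them, neither mutant had a gene under an adjusted p of 0.05 (0 genes, 0 members). Its spread rests on the 2 controls, with a biological coefficient of variation of 0.589 and 1 residual degree of freedom. At an unadjusted p under 0.05, 4 members were lower and 0 higher in the Pld6 KO (7.41% and 0.547% of all genes), and 5 lower and 0 higher in the Dnmt3L_KO (7.72% and 1.09%). DESeq2, at an adjusted p of 0.05, called 3 members lower in the Pld6 KO (Cox8c, Cox6b2 and Ndufaf3, beside 5.38% of all genes) and 0 higher (0.0844%), and 4 in the Dnmt3L_KO (the same 3 genes and Ndufa4l2, beside 5.17%) and 0 higher (0.0956%).

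A fit with the line as a block, chosen after seeing the data, was possible when both mutants were taken as 1 group and so assumed to differ alike from the control of their line. Its spread rests on 1 residual degree of freedom, which holds how far the 2 mutants differ in their change, not the variation between replicates. At an adjusted p of 0.05 edgeR then called 5 of 90 members lower and 0 higher, beside 6.32% and 0.959% of all genes. The share of members that were lower was thus near the background. The 5 were Cox8c (log2 fold change -4.12 ± 0.40, SE; adjusted p = 0.000553), Ndufaf3 (-2.88 ± 0.28; adjusted p = 0.000505), Cox6b2 (-2.81 ± 0.33; adjusted p = 0.00136), Cox7b2 (-1.83 ± 0.30; adjusted p = 0.00656) and Ndufa4l2 (-3.58 ± 0.88; adjusted p = 0.0461). Without the block the same grouping gave 0 genes in edgeR, with 6 members lower and 0 higher at an unadjusted p under 0.05 (8.48% and 0.665% of all genes).

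For each mutant by itself, Cox8c had the smallest adjusted p of the members in edgeR. Its log2 fold change was -3.96 ± 0.90 (SE; adjusted p = 0.161) in the Pld6 KO and -4.40 ± 0.92 (adjusted p = 0.132) in the Dnmt3L_KO. Cox6b2 had -2.92 ± 0.85 (adjusted p = 0.299) and -2.78 ± 0.84 (adjusted p = 0.333). Cox7b2 had -1.74 ± 0.71 (adjusted p = 0.629) and -1.95 ± 0.72 (adjusted p = 0.499). The other lower members were similar in size, Ndufaf3 with -3.22 ± 0.82 (adjusted p = 0.211) and -2.66 ± 0.79 (adjusted p = 0.316), and Ndufa4l2 with -3.25 ± 1.17 (adjusted p = 0.489) and -4.01 ± 1.22 (adjusted p = 0.339).

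**Figure D3:**
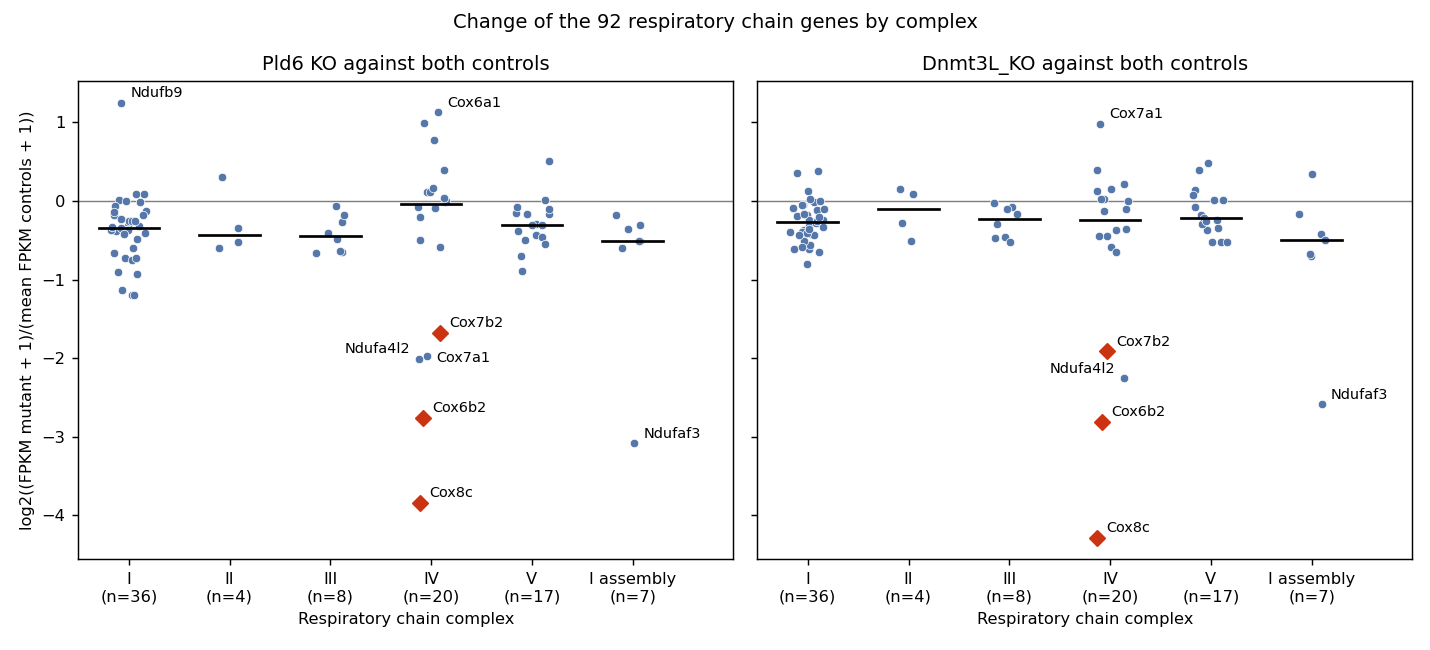
Change of each of the 92 members, as log2 of FPKM + 1 in the mutant over FPKM + 1 in the mean of the controls, by complex (points, with medians as black bars and testis isoforms as red diamonds). In both mutants most members lie between 0 and -1, and Cox6b2, Cox7b2, Cox8c, Ndufaf3 and Ndufa4l2 lie apart below them, together with Cox7a1 (-1.98) in the Pld6 KO.

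Outside these 5 genes most differences between mutants and controls were smaller. The median change of the other 87 members was -0.31 in the Pld6 KO and -0.24 in the Dnmt3L_KO on the log2(FPKM + 1) scale, against -0.05 and -0.02 over the 14416 genes. Of all 92 members, 50 lay below both controls in the Pld6 KO (32.4% of these 14416 genes did), 31 between them and 11 above (31.0%). Shares given below as of genes, not of all genes, are likewise over the 14416 with a mean of at least 1 FPKM. That mean was reached by 88 of the 92 members. In the Dnmt3L_KO, 47 lay below (34.0%), 38 between and 7 above (35.5%). The median over all members moved with the choice of control. Against Pld6 WT alone, the control of its own line, the Pld6 KO had a median of -0.10, with 52 members lower (49.2% of genes). Against Dnmt3L_Het alone, the Dnmt3L_KO had a median of -0.43, with 83 members lower (45.2% of genes). The 2 controls themselves differed, with 82 of 92 members higher in Dnmt3L_Het (53.2% of genes) and a median difference of 0.40.

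Taken in the order of electron flow, in complex I, which oxidises NADH, the median change was -0.34 in the Pld6 KO and -0.27 in the Dnmt3L_KO over 36 genes. Its most abundant member by mean was the accessory subunit gene Ndufa3, at 684, 342, 559 and 412 FPKM in Dnmt3L_Het, Pld6 WT, Dnmt3L_KO and Pld6 KO. Both mutants lay between the controls there. Ndufs5 was listed at 0 FPKM in both controls and at most 0.0660 FPKM in the mutants. Of its 50-base stretches, 31.1% occur in BC002163, which was listed at 187, 113, 130 and 93.5 FPKM and was looked up after the Ndufs5 values had been seen. The level of Ndufs5 is therefore uncertain.

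Ndufb9, an accessory subunit gene of complex I, was at 395 FPKM in Dnmt3L_Het, 347 FPKM in Pld6 WT, 280 FPKM in Dnmt3L_KO and 884 FPKM in Pld6 KO. The Pld6 KO was 2.24-fold above the higher control, and the Dnmt3L_KO was below both. Of its 50-base stretches 23.4% are shared with Gm49356, a gene that overlaps it on the same strand, and edgeR gave a log2 fold change of 1.20 ± 0.55 (SE; adjusted p = 0.727) in the Pld6 KO. Fragments of Ndufb9 and Gm49356 may not have been told apart.

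The catalytic and anchor subunits of complex II (succinate dehydrogenase) had a median change of -0.43 in the Pld6 KO and -0.10 in the Dnmt3L_KO over 4 genes. Sdha, the flavoprotein, was at 87.2, 93.6, 101 and 112 FPKM in Dnmt3L_Het, Pld6 WT, Dnmt3L_KO and Pld6 KO, above both controls in either mutant by less than 1.5-fold. Sdhb, the iron-sulfur subunit, was at 214, 165, 133 and 149 FPKM, and the membrane anchor Sdhc at 144, 121, 109 and 92.4 FPKM, each below both controls in either mutant. Sdhd, the other anchor, was at 147, 88.6, 126 and 77.4 FPKM, between the controls in the Dnmt3L_KO and below them in the Pld6 KO.

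Complex III, which passes electrons to cytochrome c, had a median change of -0.44 in the Pld6 KO and -0.23 in the Dnmt3L_KO over 8 genes. Its most abundant member was Uqcr11, a small accessory subunit gene, at 905, 547, 523 and 694 FPKM, and its least abundant was Uqcrfs1, the Rieske iron-sulfur protein, at 109, 73.6, 89.7 and 58.6 FPKM. In complex V the median was -0.31 and -0.22 over 17 genes. The subunit e gene Atp5k was highest at 1420, 821, 865 and 860 FPKM, and Atp5s, coding for factor B, lowest at 17.3, 17.4, 14.7 and 11.6 FPKM. The largest upward differences among these 17 genes were those of Atp5sl in the Pld6 KO (31.4, 26.6, 24.2 and 41.5 FPKM) and of Atp5g3, one of 3 genes for the subunit c, in the Dnmt3L_KO (325, 266, 415 and 281 FPKM). Neither passed 2-fold. Atp5sl was counted in complex V by its older symbol alone, and RefSeq names it Dmac2.

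Complex IV as a whole had a median change of -0.04 and -0.24 over 20 genes. Its 12 subunit genes that are not tissue isoforms had a median change of 0.01 in the Pld6 KO and -0.12 in the Dnmt3L_KO, unlike the testis isoforms with -2.76 and -2.81. Cox4i1, the regulatory subunit and most abundant of the complex, was at 1064, 801, 685 and 1228 FPKM in Dnmt3L_Het, Pld6 WT, Dnmt3L_KO and Pld6 KO. Cox6a1 was at 636, 441, 502 and 1181 FPKM, with the Pld6 KO 1.86-fold above the higher control, and 12.3% of its 50-base stretches occur in another gene. Cox7a2 was at 405, 312, 240 and 337 FPKM. Cox7a2l, which takes part in joining complexes III and IV, was at 232, 202, 169 and 153 FPKM and lower than both controls in either mutant but less than 1.5-fold below the lower one.

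The isoforms of other tissues were absent or low apart from Cox7a1. Cox8b, a heart and muscle isoform, was at 0 fragments in all libraries, and a count of 0 allows up to 3 fragments. Cox6a2, also of heart and muscle, had 0, 1, 1 and 15 fragments in Dnmt3L_Het, Pld6 WT, Dnmt3L_KO and Pld6 KO, and Cox4i2, a lung isoform, was at 0.939, 0.889, 0.482 and 1.08 FPKM. Cox7a1, the muscle isoform beside Cox7a2, reached 105 FPKM in Dnmt3L_Het and 116 FPKM in Dnmt3L_KO, but 11.2 FPKM in Pld6 WT and 14.0 FPKM in Pld6 KO. It therefore split the libraries by line, not by mutation.

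The same split was sought in all members. Of the 92, 5 were more than 1.5-fold higher in both libraries of the Dnmt3L line than in both of the Pld6 line. This was a smaller share than the 11.9% of genes that were, and 0 showed the reverse (4.96%). The 5 were Cox7a1 (7.06-fold between the nearest libraries), Ndufa8 (2.15-fold), Ndufb11 (1.79-fold), Atp5c1 (1.74-fold) and Cox7b (1.52-fold). Between the controls alone, 6 members differed more than 2-fold, all higher in Dnmt3L_Het (17.6% of genes, and 6.10% in the other direction), led on the log2 scale by Cox7a1 (3.12), Ndufv3 (1.66) and Ndufa8 (1.27). The members that leaned most to Pld6 WT were Ndufs1 (-0.40), Ndufs7 (-0.29) and Sdha (-0.10), of which the first 2 are core subunit genes of complex I. Of the X-linked members, Ndufb11 was at 151, 62.6, 137 and 76.2 FPKM and Cox7b followed the line as well, whereas Ndufa1 was at 438, 342, 290 and 246 FPKM and lower than both controls in either mutant.

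Several lists of cell type markers, but not all, moved with either pattern. The lists were chosen with earlier results of these data known. Markers of pachytene spermatocytes, a stage after zygotene, had a median of 57.9 FPKM in Dnmt3L_Het, 36.4 FPKM in Pld6 WT, 1.38 FPKM in Dnmt3L_KO and 1.71 FPKM in Pld6 KO, with summed levels of 2013, 1083, 212 and 179 FPKM. More than 2-fold below both controls were 13 of 16 in each mutant (5.41% of all genes in the Pld6 KO and 5.78% in the Dnmt3L_KO). Over the 14416 genes with a mean of at least 1 FPKM, which all 16 markers reached, these shares were 8.57% and 9.16%. Acr was at 0 in the Pld6 KO. Spermatid markers had medians of 81.8, 14.5, 0.782 and 0.875 FPKM and sums of 7617, 355, 82.4 and 56.7 FPKM. By the same 2-fold rule 14 of 16 were lower in the Pld6 KO (5.41% of all genes and 8.57% of the 14416). In the Dnmt3L_KO 13 of 16 were lower (5.78% and 9.16%). Spaca4 was at 0 in both mutants, Acrv1 in the Pld6 KO and Smcp in the Dnmt3L_KO. Both marker lists were thus low where Cox6b2, Cox7b2, Cox8c, Ndufaf3 and Ndufa4l2 were low, and their part in these differences was not tested. In bulk RNA, fewer cells of a type and less RNA per cell cannot be told apart. The 19 L/Z markers had medians of 69.9, 171, 67.7 and 107 FPKM and sums of 2309, 3896, 1465 and 2323 FPKM in Dnmt3L_Het, Pld6 WT, Dnmt3L_KO and Pld6 KO, so that the controls also differed. In the Pld6 KO the median log2 change was -0.46, with 8 of 19 below both controls (32.4% of genes) and 0 more than 2-fold (5.41%). In the Dnmt3L_KO it was -1.07, with 16 of 19 below both (34.0% of genes) and 2 more than 2-fold (5.78%).

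Sertoli markers as a set followed the line, as Cox7a1 did, with summed levels of 7887 FPKM in Dnmt3L_Het, 308 FPKM in Pld6 WT, 10674 FPKM in Dnmt3L_KO and 736 FPKM in Pld6 KO and with 0 of 16 at 0 in any library. Trf (14.9, 5.29, 28.1 and 16.3 FPKM in that order) did not, being higher in the Pld6 KO than in Dnmt3L_Het. Against the control of its own line, 15 of 16 were higher in the Pld6 KO (median log2 change 1.17) and 16 of 16 in the Dnmt3L_KO (0.41). Of the 14416 genes, 7282 and 7802 were higher. The 7 Leydig cell markers had medians of 37.6, 1.39, 28.5 and 17.6 FPKM, and the 9 macrophage markers 10.5, 2.04, 17.8 and 5.88 FPKM. Medians of the 10 spermatogonia markers were 11.4, 14.6, 12.2 and 18.8 FPKM, low in neither mutant and not higher in the Dnmt3L line. The part of somatic cells in the levels of Cox7a1 and of the other members that followed the line was not tested.

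**Figure D4:**
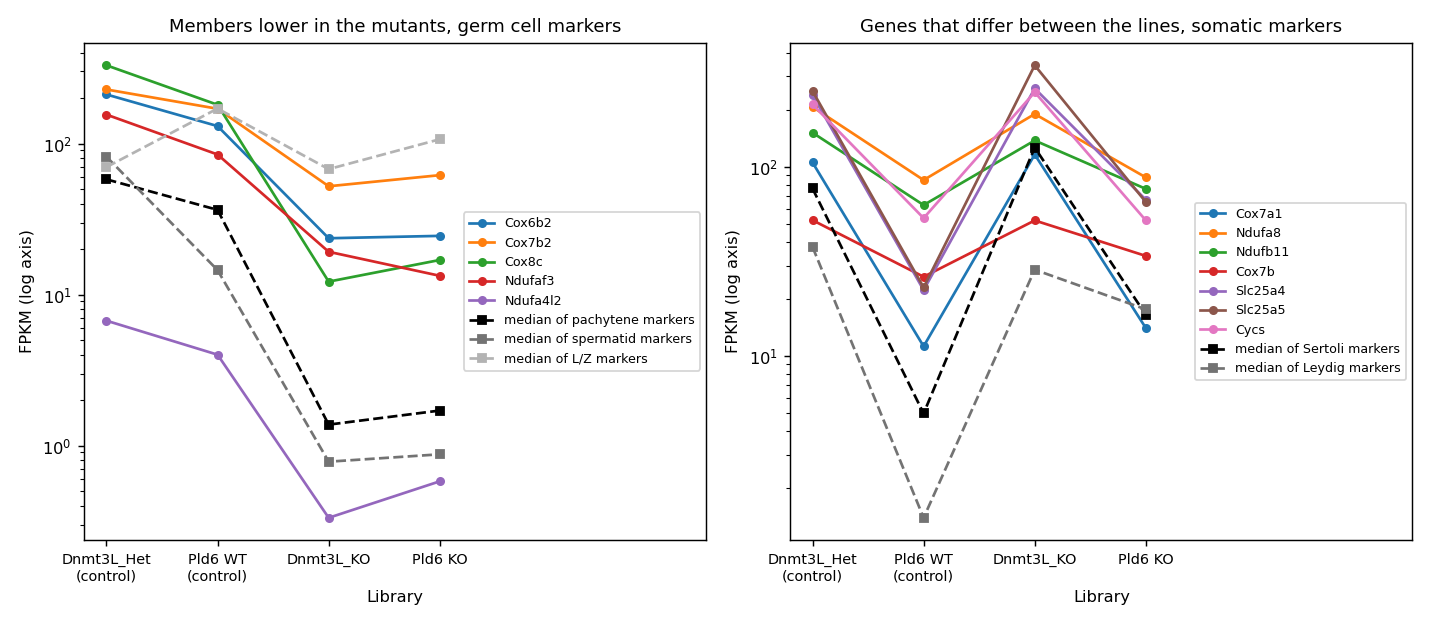
FPKM on a log axis in the 4 libraries, with solid lines joining the values of 1 gene and dashed lines the medians of marker lists. In the left plot the 5 lower members and the medians of the pachytene and spermatid markers are low in both mutants, while in the right plot Cox7a1, carriers, Cycs and the Sertoli median (76.6, 4.96, 126 and 16.5 FPKM) are high in both libraries of the Dnmt3L line.

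Of 47 other genes of the pathway (cytochrome c, assembly factors, regulators, nucleotide carriers and pyruvate entry), 2 were more than 2-fold lower than both controls in each mutant (5.41% of all genes in the Pld6 KO and 5.78% in the Dnmt3L_KO) and 0 higher. This count was no higher than the background, and 0 passed edgeR's adjusted p of 0.05. At an unadjusted p under 0.05, 0 (Pld6 KO) and 1 (Dnmt3L_KO) were lower, and DESeq2 called 0. The 2 lower genes were Cyct and Pdha2. Cyct, the testis cytochrome c, was at 87.8, 58.1, 17.3 and 24.2 FPKM in Dnmt3L_Het, Pld6 WT, Dnmt3L_KO and Pld6 KO. Pdha2, the testis form of a pyruvate dehydrogenase subunit, was at 26.9, 17.0, 6.05 and 7.47 FPKM. The levels of both genes were below both controls in either mutant.

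The somatic counterparts differed from each other. Pdha1, the X-linked partner of Pdha2, was at 17.1, 17.4, 18.3 and 24.5 FPKM, and Pdha2 made up 61.1% and 49.5% of its pair in the controls, 24.9% in the Dnmt3L_KO and 23.3% in the Pld6 KO. Cycs, the somatic cytochrome c, followed the line at 213, 53.4, 247 and 52.0 FPKM, so that the Cyct share was 29.2%, 52.1%, 6.55% and 31.8%. The ADP/ATP carriers Slc25a4 (239, 22.2, 259 and 66.8 FPKM) and Slc25a5 (251, 23.0, 343 and 64.9 FPKM) did so too. Of the 50-base stretches of Cycs 28.2%, and of those of Slc25a5 46.6%, occur in other genes. Their levels, and shares built on them, are less certain. Slc25a31, the germ cell ADP/ATP carrier, was at 113, 162, 80.5 and 98.2 FPKM, below both controls in either mutant but less than 2-fold below the lower one.

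Promoters were searched for short motifs, on both strands of the 250 bases before the start, in 76 members with a RefSeq promoter (GRCm38.p6) and in 27025 genes in all. A gene was counted when at least 1 of its promoters held the motif. The NRF1 motif (GCGCA, any base, GCGC), named for a regulator of respiratory genes, was in 18.4% of members and 4.23% of all these genes. CCGGAAGT, an ETS motif bound by GABPA, was in 3.95% and 3.23%. The cyclic AMP response element TGACGTCA was in 5.26% and 1.77%, its part TGACG in 31.6% and 19.8%, and TATAAA in 7.89% and 14.3%. None of the first 3 motifs was in the window of Cox6b2, Cox7b2 or Ndufaf3. Cox8c and Ndufa4l2 were not among the 76 members searched. Cox7b2 held TGACG and TATAAA. A match describes letters only.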

How the data were processed

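Strand-specific polyA(+) libraries were read for 50 bp from 1 end. Per the submitters' processing notes, TopHat and Cuffdiff were run on build mm10 (versions not given in the sources used here). The deposited table gives estimated counts of fragments per gene before scaling, the same fragments scaled by the authors to depth (a signal not used for any result), and FPKM computed by the authors' tool. All values of the condition column could be mapped to a sample (0 could not). Fragments per library were 63875934 (Dnmt3L_Het), 40541149 (Pld6 WT), 49932330 (Dnmt3L_KO) and 30439943 (Pld6 KO). For 28 genes the tool marked a value as failed, 0 of them members.

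The controls were Dnmt3L_Het (replicate 1) and Pld6 WT (replicate 2). Members were called higher or lower when FPKM + 1 was more than 2-fold beyond both controls. Changes are log2((FPKM + 1)/(mean FPKM of controls + 1)), which understates those of low genes. Estimated counts, rounded, were tested with edgeR 4.0.16 (quasi-likelihood, TMM, filterByExpr, Benjamini-Hochberg over 18657 genes; line as a block as an alternative) in R 4.3.3, with DESeq2 1.42.0 as an alternative. Standard errors are the log2 fold change divided by the root of the F statistic. Named genes are the testis isoforms and partners, other tissue isoforms, complex II, the most and least abundant member of each other complex, members beyond 2-fold, the 5 largest changes per direction and mutant, the 3 largest control differences per direction, X-linked members, and the pairs and targeted genes outside the rule. Members and lists were chosen with earlier results of these data known. Positions and promoters are from RefSeq GRCm38.p6, where 92 of 92 members matched (3 by an older symbol), and transcripts from GENCODE M21. Whether samples came from 1 or several animals is not stated.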

Additional observations from a re-analysis of the deposited data

Results flagged for a closer look

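Some genes differed in opposite directions in the 2 lines when each mutant was set against the control of its own line, by at least 0.3 on the log2(FPKM + 1) scale in each. Each value rests on 1 library against 1, and no test of line against line was made. The share of all genes was not counted at this limit. Between the controls, 82 of 92 members were higher in Dnmt3L_Het, with a median difference of 0.40. The part of this difference in the opposite signs was not tested. Atp5j2 was at 0.39 in the Pld6 KO and -0.54 in the Dnmt3L_KO. Atp5sl was at 0.63 in the Pld6 KO and -0.37 in the Dnmt3L_KO. Cox4i1 was at 0.62 in the Pld6 KO and -0.64 in the Dnmt3L_KO. Cox6a1 was at 1.42 in the Pld6 KO and -0.34 in the Dnmt3L_KO. Cox6c was at 0.59 in the Pld6 KO and -0.46 in the Dnmt3L_KO, and 13.9% of its 50-base stretches occur in another gene. Ndufb9 was at 1.35 in the Pld6 KO and -0.50 in the Dnmt3L_KO. Ndufv3 was at 0.46 in the Pld6 KO and -0.65 in the Dnmt3L_KO. Uqcr11 was at 0.34 in the Pld6 KO and -0.79 in the Dnmt3L_KO, and 10.9% of its 50-base stretches occur in another gene. The median of complex IV was at 0.18 in the Pld6 KO and -0.42 in the Dnmt3L_KO. The complex IV median is included for its opposite signs.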

How the results depend on the processing

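Without one control the count of lower members ranged from 5 to 17 in the Pld6 KO (17 without Pld6 WT, control replicate 2), and of higher members from 2 to 2. In the Dnmt3L_KO, higher members ranged from 0 to 4 (4 without Dnmt3L_Het, control replicate 1). With a threshold of 1.5-fold, the Pld6 KO had 8 lower and 4 higher members, with 3-fold 0 higher, with a pseudocount of 0.1 FPKM 2 higher, and without members sharing over 10% of their 50-base stretches (an alternative chosen after seeing the data) 0 higher. The share of all genes was not counted under these settings, so the counts have no background beside them. Genes past an adjusted p of 0.05, 0 in edgeR, were 437 (Pld6 KO) and 429 (Dnmt3L_KO) without its filter and 972 and 936 in DESeq2, with 3 and 4 members. As a share of fragments instead of FPKM, the difference of the mutant from the controls in percentage points was -21.2 (Pld6 KO) and -21.3 (Dnmt3L_KO) for Cox6b2, instead of -22.5 and -23.1, and -25.5 and -39.3 for Cox7b2, instead of -19.4 and -33.9. In the Pld6 KO the difference of the Cyct share ranged from -20.3 to 2.56 when a control was left out and that of the Slc25a31 share from -35.5 to 24.0, each positive without Pld6 WT, and the latter was 0.111 as a share of fragments. The Cyct share was 31.8% in the Pld6 KO, between Dnmt3L_Het (29.2%) and Pld6 WT (52.1%). The Slc25a31 share was 42.7%, between 18.8% and 78.2%. The sign of each difference therefore followed the control that was kept, and the cause of the gap between the controls was not tested. The log2 changes of single genes moved by more than the SD of the controls in 14 cases on the TMM scale, 15 with the smaller pseudocount, 6 without control replicate 1 and 4 without control replicate 2, and kept within it in 170, 169, 178 and 180. Leaving out a control leaves edgeR 0 residual degrees of freedom, so that alternative was not run. For a single mutant, pairing by line leaves 0 residual degrees of freedom too. With both mutants as 1 group, line as a block moved the genes past an adjusted p of 0.05 from 0 to 1358 and the members from 0 to 5.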
